A study of Mus musculus with 18 samples.

Results

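The cells described are CD4+CD8+ double-positive thymocytes that carried the OT2 T cell receptor and came from a host with the antigen (OT2 NegSelected) or from a host without selection (OT2 NoSelection). They are 111 of the 1331 cells of the series, 66 from the NegSelected mouse and 45 from the NoSelection mouse. A cell was taken when its CD4 antibody value exceeded 6.3 and its CD8A antibody value exceeded 6.1. Such a value is the log2 of 1 plus the antibody count, after the count was scaled to the median antibody total of all cells. The cells were thus chosen by their CD4 and CD8A antibody values, which are given below as a description only.

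The series profiled sorted thymocytes of bone marrow chimeras by single-cell RNA sequencing together with antibody tags (CITE-seq). Each chimera received 30% marrow from an OT1 or OT2 donor (CD45.1.2, strain B6) and 70% wild-type competitor marrow (CD45.1). At 6 weeks after transplant (age 14 weeks, females, none pooled), cells low in CD44, positive for CD45.1.2 and positive for the Va2 and Vb5 receptor chains were sorted. OT2 NegSelected cells came from a RIPmOVA host, whose transgene Tg(Ins2-TFRC/OVA)296Wehi is carried on C57BL/6 and expresses membrane-bound ovalbumin from an insulin promoter. OT2 PosSelected cells, given beside the others for orientation, came from a C57BL/6NCrl host with no ovalbumin. OT2 NoSelection cells came from a host labelled as MHCII KO under treatment (B6.Ly5.1/Ncr) but as a B2m knockout in the comments, and the treatment label was used. The OT2 receptor is restricted by MHC class II. By the treatment label, the NegSelected and NoSelection hosts differ in the antigen, in class II on host cells and in the strain name given. These cannot be told apart. There was 1 mouse per side, so every interval below is a 95% interval that covers counting error only, and no difference has a replicate check.

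Double-positive thymocytes have rearranged their receptor genes with the RAG recombinase and await a signal from that receptor. A receptor that meets a peptide on a suitable MHC molecule shuts off Rag1 and Rag2, raises CD5 and CD69 and starts positive selection, while a strong signal can lead to deletion or to an agonist-selected fate. A cell whose receptor finds no ligand keeps the recombination genes on and dies after a few days.

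Each cell was tied to its mouse by a hashtag, and surface proteins were read through the barcode on each antibody. The barcodes behind the sorting of cells into mice, the gate and the 3 antibodies that were higher in NegSelected cells follow, all in capitals because the whole run is the barcode.
HT13 (NegSelected mouse): CTACATTGCGATTTG
HT21 (NoSelection mouse): CTTTAGTTCGTTGTG
CD4: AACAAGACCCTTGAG
CD8A: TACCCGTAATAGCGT
CD5: CAGCTCAGTGTGTTG
CD2: TTGCCGTGTGTTTAA
I-A/I-E: GGTCACCAGTATGAT

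The gate held 66 of 177 cells (37.3%, Clopper-Pearson interval 30.1% to 44.9%) of the NegSelected mouse and 45 of 108 (41.7%, 32.3% to 51.5%) of the NoSelection mouse. The PosSelected mouse had 29 of 254 cells in the gate. The summed double-positive cells held 148704 RNA UMIs in NegSelected and 89089 in NoSelection, with medians of 2162 and 1854 UMIs per cell, and 280558 and 180264 antibody UMIs. Mitochondrial transcripts made up 2.66% of RNA UMIs in NegSelected and 3.15% in NoSelection, and ribosomal protein transcripts 10.8% and 9.65%. All 1331 cell barcodes were distinct. RNA of both coreceptors was present in both groups, and Cd8a had 225 UMIs in NegSelected and 186 in NoSelection, and Cd4 had 54 and 60. Defining genes of other lineages were at or near 0. Cd79a, Ms4a1 and Pax5 (B cells), Csf1r, Itgax and H2-Aa (myeloid and antigen-presenting cells), Ncr1 and Tyrobp (NK cells), Zbtb16 (iNKT cells), the 4 haemoglobin genes and Aire and Foxn1 (thymic epithelium) had 0 UMIs in both. Ighm, whose sterile transcripts occur in thymocytes, had 39 UMIs in NegSelected and 35 in NoSelection, and the whole B cell list summed to 40 of 148704 and 41 of 89089 UMIs. The myeloid list summed to 23 and 11 UMIs, of which Cst3 gave 21 and 11.

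CD4 itself stood apart between the mice. Its antibody value in NegSelected double-positive cells had a lowest value of 6.32, a median of 6.80 and a highest of 7.56, against 7.08, 8.16 and 8.69 in NoSelection cells. In all, 50 of the 66 NegSelected cells lay below the lowest NoSelection cell, and 40 of the 45 NoSelection cells lay above the highest NegSelected cell. PosSelected cells, cut at the same threshold, had values near those of NegSelected cells, at 6.38, 6.86 and 7.66. The NegSelected cells run continuously through the threshold: 13 CD8A-positive cells lay within 0.3 above the CD4 threshold and 16 within 0.3 below it, the nearest at 6.32 and 6.29. Among CD8A-positive cells of the NoSelection mouse, 0 lay within 0.3 of that threshold on either side. CD8A overlapped far more, with 6.38, 7.91 and 8.80 in NegSelected and 6.14, 8.22 and 8.68 in NoSelection. Among CD4-positive cells, 1 NegSelected cell lay within 0.3 above the CD8A threshold and 3 within 0.3 below it, against 1 and 0 NoSelection cells. Cd4 RNA was also lower in NegSelected, at 363 CPM (UMIs of a gene scaled to a common total of RNA UMIs) against 673 CPM in NoSelection, a ratio of 0.539 (0.366 to 0.792).

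**Figure D1:**
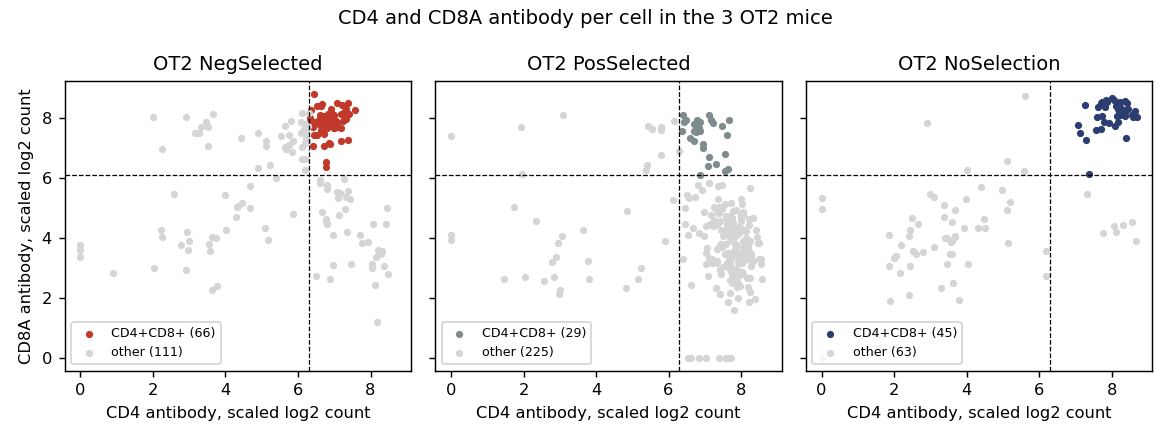
CD4 (x axis) and CD8A (y axis) antibody values, as scaled log2 counts, of every cell of the 3 OT2 mice, with the gate as dashed lines and the number of cells inside and outside it in each legend. The 66 NegSelected cells sit against the CD4 threshold with a median of 6.80, whereas the 45 NoSelection cells sit clear of it with a median of 8.16.

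The highest antibody ratio between NegSelected and NoSelection cells was that of CD5, an inhibitory receptor whose level follows the strength of receptor signalling. CD5 antibody had a lowest value of 6.04, a median of 8.59 and a highest of 9.65 in NegSelected cells, against 2.87, 5.37 and 7.74 in NoSelection cells. Of the 66 NegSelected cells, 59 (89.4%, 79.4% to 95.6%) were above every NoSelection cell, and 32 of the 45 NoSelection cells were below every NegSelected cell. In sums, CD5 took 9.11% of all antibody UMIs in NegSelected and 1.24% in NoSelection, a 7.34-fold difference (7.03 to 7.67). PosSelected double-positive cells had a median of 8.44, and the NegSelected over PosSelected ratio was 1.04 (1.01 to 1.06).

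The other proteins that passed 1.5-fold upward were CD2 and MHC class II. CD2, an adhesion and costimulatory receptor, had a median of 6.07 in NegSelected cells and 3.79 in NoSelection cells, and 32 of 66 NegSelected cells were above every NoSelection cell. Its summed ratio was 3.60 (3.33 to 3.90). I-A/I-E, the MHC class II molecule, had a median of 4.35 in NegSelected cells and 2.91 in NoSelection cells, with ranges that overlapped (2.45 to 7.24 and 0.00 to 5.58), and a summed ratio of 2.83 (2.52 to 3.18). H2-Aa RNA, which encodes a class II chain, was at 0 UMIs in both, which allows up to 3 counts in each group. The I-A/I-E median of the double-positive cells was 4.48 in PosSelected and 5.47, 4.94 and 3.94 in the OT1 NegSelected, OT1 NoSelection and OT1 PosSelected mice, so that the OT2 NoSelection mouse had the lowest of the 6 medians. The isotype control with the highest level had medians of 2.83 in NegSelected and 2.69 in NoSelection cells.

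**Figure D2:**
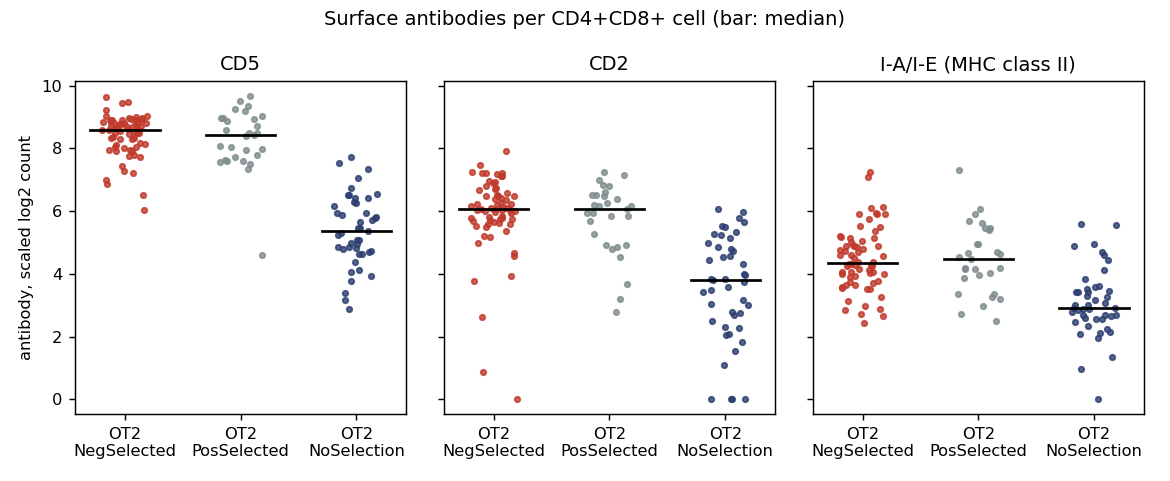
CD5, CD2 and I-A/I-E antibody values (y axis, scaled log2 count) of each double-positive cell (points) with the median of each OT2 mouse (bar). The CD5 medians are 8.59 in NegSelected, 8.44 in PosSelected and 5.37 in NoSelection cells, with 59 of the 66 NegSelected cells above every NoSelection cell and 32 of the 45 NoSelection cells below every NegSelected cell.

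Over the 111 antibodies with at least 100 UMIs, 3 (2.7%) were at least 1.5-fold higher and 5 (4.5%) at least 1.5-fold lower in NegSelected cells, and the median ratio was 0.998. The 7 isotype controls had ratios between 0.763 and 1.16. Of the antibodies that were lower, CD4 had chosen the cells (ratio 0.416, 0.404 to 0.428). The others were IL2RA (CD25, the alpha chain of the IL-2 receptor; 0.498, 0.417 to 0.594), NRP1 (neuropilin 1; 0.514, 0.470 to 0.562), LAG3 (an inhibitory receptor that binds class II; 0.548, 0.502 to 0.597) and ITA6 (CD49f, integrin alpha 6; 0.652, 0.622 to 0.684). All of them exceeded the highest isotype control, 1436 CPM of antibody UMIs, in at least 1 group, although IL2RA did so only in NoSelection, at 813 CPM in NegSelected and 1631 CPM in NoSelection. The LAG3 median was 4.07 in NegSelected and 4.30 in NoSelection cells, with highest cells at 5.44 and 8.19, and the ITA6 median was 5.37 and 5.76, with highest cells at 9.09 and 10.7. The NRP1 median was 3.69 in NegSelected and 4.40 in NoSelection cells, and the IL2RA median 1.71 and 2.48. The LAG3 and ITA6 medians thus lay closer than 1.5-fold, unlike their sums, and the highest cells of both were NoSelection cells. CD69, an early activation marker, did not pass 1.5-fold at 3939 CPM and 3739 CPM, a ratio of 1.05 (0.956 to 1.16).

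RNA and protein could be set side by side for several of these. Cd5 RNA had 128 UMIs in NegSelected and 6 in NoSelection, 861 and 67.3 CPM, a 12.8-fold difference (5.71 to 35.5), beside 7.34-fold for the protein. Cd2 RNA had 82 UMIs in 38 of 66 cells in NegSelected and 1 UMI in 1 of 45 cells in NoSelection, a ratio of 49.1 (8.57 to 1964). Cd28 RNA, for the costimulatory receptor, was 3.22-fold higher (1.87 to 5.88; 86 and 16 UMIs), whereas CD28 antibody had a ratio of 1.04 (0.978 to 1.11). Cd27, of the TNF receptor family, was 2.26-fold higher in RNA (1.45 to 3.63) and 1.39-fold in protein (1.32 to 1.47). The RNA of Il2ra (7 and 4 UMIs), Nrp1 (2 and 5), Lag3 (1 and 1) and Itga6 (7 and 3) was too sparse in NegSelected and NoSelection cells to set beside the antibody.

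RNA was compared over 1578 genes with at least 30 UMIs in both groups together. Of these, 94 (5.96%) were at least 2-fold higher in NegSelected and 79 (5.01%) at least 2-fold lower, with a median log2 ratio of 0.01. Counts of list members below are to be read against these shares. The lists and the members were chosen with earlier results of these data known, so their direction is no independent evidence.

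Genes of the unsignalled double-positive stage were lower in NegSelected cells. Rag1, the catalytic subunit of the recombinase, had 39 UMIs (262 CPM) in NegSelected and 120 UMIs (1347 CPM) in NoSelection, a ratio of 0.195 (0.132 to 0.282). Rag2, its partner, had 12 UMIs (80.7 CPM) and 27 UMIs (303 CPM), a ratio of 0.266 (0.123 to 0.544). Of the 7 measured genes of the 10 in the preselection list, 5 were at least 2-fold lower, 0 were higher, and the median log2 ratio was -1.27. Arpp21, an RNA-binding protein abundant in these thymocytes, had 98 and 142 UMIs (ratio 0.413, 0.316 to 0.539). Dntt, the terminal transferase that adds bases at receptor junctions, had 107 and 116 UMIs and a ratio of 0.553 (0.421 to 0.725). Ptcra, the pre-receptor alpha chain, fell outside the minimum with 0 UMIs in NegSelected and 13 in NoSelection.

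Genes induced within hours of receptor engagement were higher. Only 4 of the 19 in that list were measured, and 3 of the 4 were at least 2-fold higher. Id3, an inhibitor of E proteins, had 123 UMIs (827 CPM) in NegSelected and 15 UMIs (168 CPM) in NoSelection, 4.91-fold (2.87 to 9.04). Egr1, a transcription factor of the early growth response family, had 49 and 3 UMIs, 9.79-fold (3.16 to 49.1). Dusp2, a MAP kinase phosphatase, had 155 and 146 CPM and a ratio of 1.06 (0.515 to 2.28). Below the minimum of 30 UMIs, and named after their values were seen, Nab2, a co-repressor of EGR proteins, had 29 UMIs in 13 NegSelected cells and 0 in NoSelection, at least 5.79-fold higher when 3 counts over the group are taken for the 0. Nr4a1 (Nur77), the standard reporter of receptor signalling, had 18 UMIs in 6 NegSelected cells and 0 in NoSelection, at least 3.59-fold higher on the same floor.

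Genes raised after positive selection were mostly higher as well. Of 12 listed genes 9 were measured, 7 were at least 2-fold higher and 0 lower, and the median log2 ratio was 1.53. Itm2a, a membrane protein raised during positive selection, had 208 UMIs (1399 CPM) in NegSelected and 3 UMIs (33.7 CPM) in NoSelection, a ratio of 41.5 (14.0 to 203). Tox, a nuclear factor needed for CD4 lineage development, had 225 UMIs in 56 of 66 cells and 28 UMIs in 16 of 45 cells, 4.81-fold (3.24 to 7.41). Satb1, a chromatin organiser, was at 2858 and 2750 CPM with a ratio of 1.04 (0.886 to 1.22). Gata3, the CD4-lineage factor, was 3.12-fold higher (1.18 to 10.4) on 26 and 5 UMIs. Zbtb7b, which commits cells to the CD4 lineage, had 1 UMI in NegSelected and 0 in NoSelection.

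**Figure D3:**
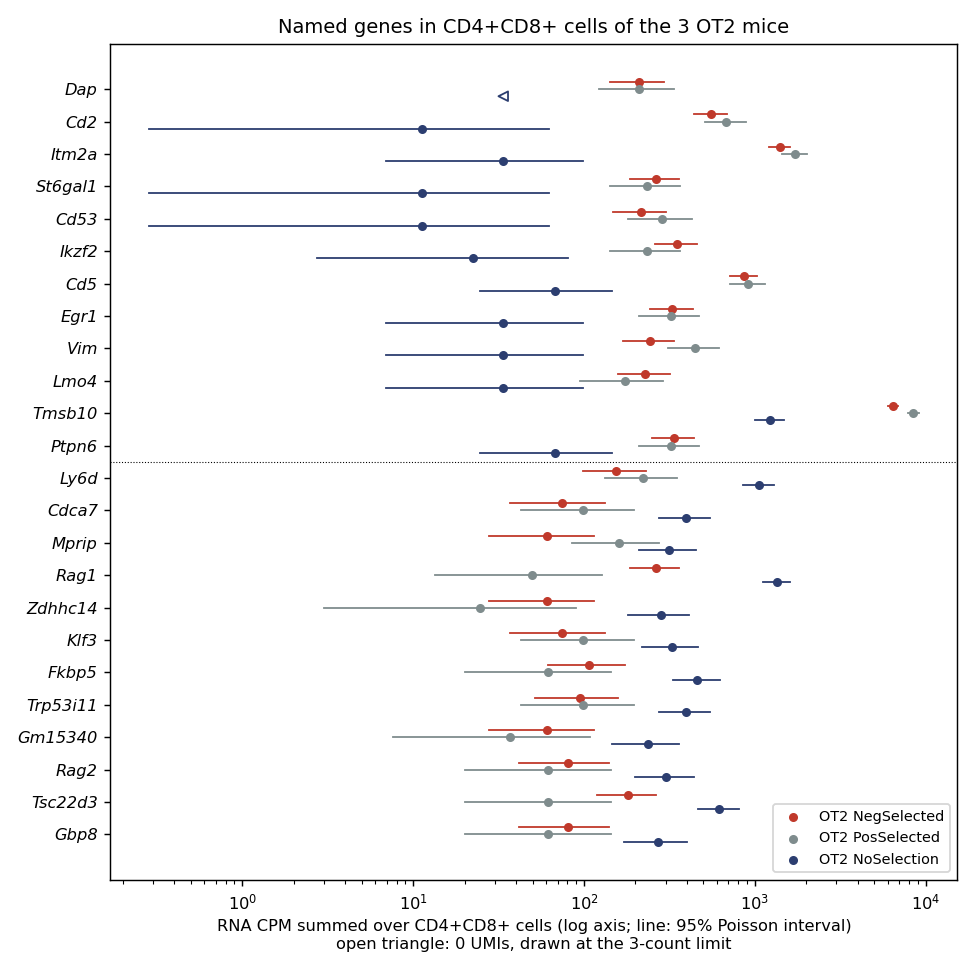
RNA level (x axis, CPM on a log axis) of the 12 highest and 12 lowest genes by ratio in the double-positive cells of each OT2 mouse, with 95% Poisson intervals as lines, higher genes above the dotted line. Itm2a stands at 1399 CPM in NegSelected and 33.7 CPM in NoSelection, Rag1 at 262 and 1347 CPM, and an open triangle marks Dap, with 0 UMIs in NoSelection.

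The remaining genes with the highest ratios were of several kinds. Dap, a death-associated protein, had 31 UMIs in NegSelected and 0 in NoSelection, at least 6.19-fold higher against the floor of 3 counts over the group. St6gal1, a sialyltransferase, had 39 and 1 UMIs (23.4-fold, 3.95 to 946), and Cd53, a tetraspanin, had 32 and 1 (19.2-fold, 3.20 to 781). Ikzf2 (Helios), a factor associated with agonist-selected cells, had 52 UMIs in 28 NegSelected cells and 2 UMIs in 2 NoSelection cells, a ratio of 15.6 (4.10 to 132). Vim (vimentin) had 36 and 3 UMIs, Lmo4 (a LIM-only cofactor) 34 and 3, and Ptpn6 (the phosphatase SHP-1) 50 and 6, with ratios of 7.19 (2.27 to 36.5), 6.79 (2.14 to 34.6) and 4.99 (2.14 to 14.2). Tmsb10, an actin-binding thymosin, was the best counted, at 955 UMIs (6422 CPM) in NegSelected and 109 UMIs (1224 CPM) in NoSelection, 5.25-fold (4.30 to 6.46).

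Among the lowest genes, Ly6d, a GPI-anchored surface protein, had 23 UMIs (155 CPM) in NegSelected and 94 UMIs (1055 CPM) in NoSelection, a ratio of 0.147 (0.0886 to 0.233). Fkbp5 and Tsc22d3 (GILZ), both induced by the glucocorticoid receptor, had 16 and 27 UMIs in NegSelected against 41 and 55 in NoSelection. Their ratios were 0.234 (0.122 to 0.426) for Fkbp5 and 0.294 (0.178 to 0.474) for Tsc22d3. Cdca7, a cell-division-associated gene, had 11 and 35 UMIs, Klf3, a repressor of the Krüppel-like family, 11 and 29, and Gbp8, a guanylate-binding protein, 12 and 24. Mprip (binds myosin phosphatase), Zdhhc14 (a palmitoyltransferase), Trp53i11 (a p53-inducible gene) and Gm15340 (a predicted gene) had ratios between 0.193 and 0.257 on 9 to 14 UMIs in NegSelected and 21 to 35 in NoSelection.

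The stretches of 250 bases upstream of the start sites of Itm2a and Cd5, both higher, and Rag1, lower, are shown to let these genes be compared in the E-box CAGGTG, a site bound by E proteins. They come from RefSeq on GRCm38.p6, read 5′ to 3′ on the gene's strand, with CAGGTG and its reverse complement CACCTG in capitals.
Itm2a, chrX:107403361-107403610, minus strand: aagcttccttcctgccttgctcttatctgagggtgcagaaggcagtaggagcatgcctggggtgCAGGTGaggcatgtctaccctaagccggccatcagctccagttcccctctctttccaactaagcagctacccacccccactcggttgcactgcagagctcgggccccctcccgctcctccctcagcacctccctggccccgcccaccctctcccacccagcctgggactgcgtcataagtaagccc
Cd5, chr19:10738975-10739224, minus strand: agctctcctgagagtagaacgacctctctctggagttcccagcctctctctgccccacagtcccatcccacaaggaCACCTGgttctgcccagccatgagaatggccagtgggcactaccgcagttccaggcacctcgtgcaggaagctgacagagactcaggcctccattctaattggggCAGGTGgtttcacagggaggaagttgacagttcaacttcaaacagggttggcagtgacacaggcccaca
Rag1, chr2:101649533-101649782, minus strand: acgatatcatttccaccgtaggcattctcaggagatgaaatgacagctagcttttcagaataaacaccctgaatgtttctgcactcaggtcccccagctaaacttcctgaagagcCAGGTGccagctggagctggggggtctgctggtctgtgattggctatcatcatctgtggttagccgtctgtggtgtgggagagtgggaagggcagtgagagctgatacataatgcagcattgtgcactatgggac
Itm2a and Rag1 held 1 match each and Cd5 held 2. Of all 32851 upstream stretches of that length, 17.2% held a match. Of the named genes with such a stretch, 3 of 9 higher ones and 1 of 8 lower ones held one, so the genes shown do not stand for the rest. A match is a description of the letters and not a bound site.

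Lists on signalling strength and fate were sparse. Of the 15 genes of the deletion and agonist list only Ikzf2 was measured, and Gadd45b, Xcl1, Tnfrsf9, Pdcd1 and Nr4a3 were at 0 UMIs in both groups, which allows up to 3 counts of 148704 in NegSelected and of 89089 in NoSelection. Bcl2l11 (Bim), a pro-apoptotic protein of thymic deletion, had 6 and 5 UMIs. In the apoptosis list 2 of 16 genes were measured and neither passed 2-fold: Mcl1 (anti-apoptotic) had a ratio of 1.20 (0.772 to 1.89) and Fas (a death receptor) 1.06 (0.515 to 2.28). Below the minimum, and named after their values were seen, Bcl2 (anti-apoptotic) had 22 and 1 UMIs, Casp8 (the initiator caspase) 19 and 3, and Bmf (pro-apoptotic) 3 and 12. In the NF-kB list the 1 measured gene of 14, Nfkbia (the inhibitor of NF-kB), was at 282 CPM in NegSelected and 505 CPM in NoSelection, a ratio of 0.559 (0.358 to 0.871).

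Most measured genes of the receptor machinery and most identity factors stayed within 2-fold. In the CD3 and proximal signalling list, 2 of 12 measured genes were at least 2-fold higher, 0 were lower, and the median log2 ratio was 0.21. The genes higher were Ptpn6 and Zap70, the kinase recruited to the receptor (2.23-fold, 1.13 to 4.82), while Themis, a regulator of selection signals, had a ratio of 0.721 (0.604 to 0.860) and Lck, the coreceptor kinase, 0.738 (0.586 to 0.931). Among 13 measured identity factors 2 were higher (Id3 and Gata3), 0 were lower, and Tcf7, the factor TCF1, had a ratio of 1.10 (0.936 to 1.30). Ccr9, the chemokine receptor of cortical thymocytes, had a ratio of 1.65 (1.30 to 2.12), while Ccr4, a receptor for entry into the medulla, had 28 and 1 UMIs, a ratio of 16.8 (2.77 to 686), on a sum below the minimum of 30 UMIs. Among cytokine signalling genes 1 of 4 measured passed 2-fold: Socs1, a feedback inhibitor, at 0.391 (0.190 to 0.782). Socs3, another, lay below the minimum with 2 and 13 UMIs. Ccr4 and Socs3 were named after their values were seen. Of the 3 measured genes of late maturation and egress 1 was at least 2-fold higher, Gimap6, a GTPase of lymphocyte survival (2.45-fold, 1.51 to 4.16). The CD8 lineage, MHC class I and heat shock lists had 2, 5 and 4 measured genes, and 0 passed 2-fold either way. Cd8a and Cd8b1 had ratios of 0.725 (0.594 to 0.885) and 0.781 (0.637 to 0.959). Of the cell cycle list 1 of 14 was measured, Stmn1, with a ratio of 1.74 (0.823 to 4.0), and 0 of the Treg and interferon genes reached the minimum.

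**Figure D4:**
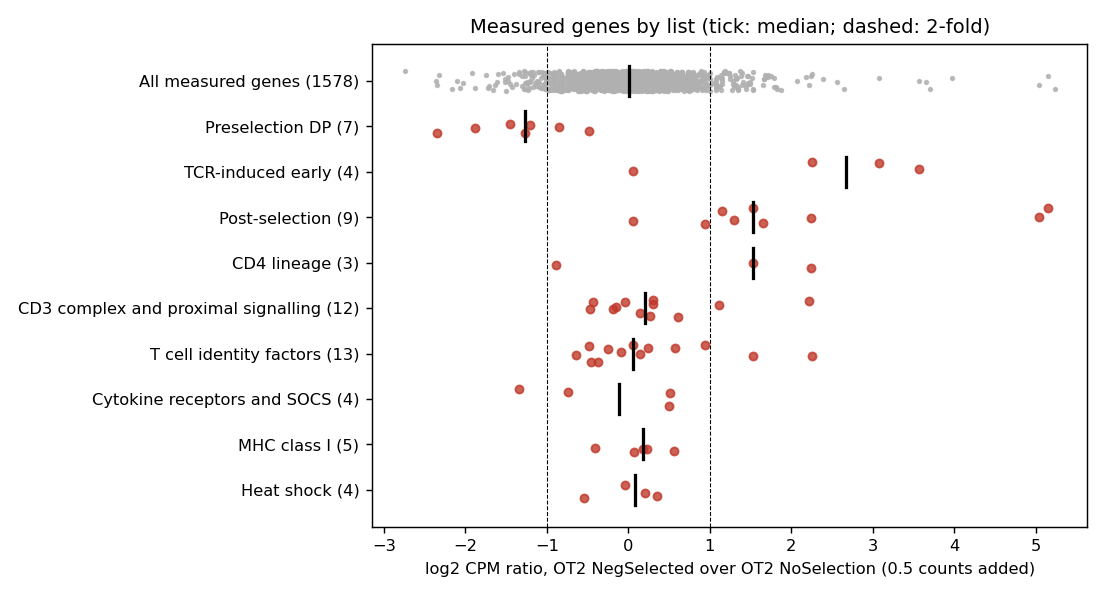
Log2 CPM ratio of NegSelected over NoSelection (x axis, 0.5 counts added to each count) of all 1578 measured genes and of the measured members of 9 lists (points), with the median as a tick and 2-fold as dashed lines. Preselection genes have a median of -1.27, genes induced early 2.67 and post-selection genes 1.53, against 0.01 for all measured genes.

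Cell by cell, a Rag1 or Rag2 UMI was seen in 19 of 66 NegSelected cells (28.8%, 18.3% to 41.3%) and in 39 of 45 NoSelection cells (86.7%, 73.2% to 94.9%), a difference of -57.9 points (Newcombe interval -69.7 to -40.4). An Itm2a UMI was seen in 34 NegSelected cells (51.5%, 38.9% to 64.0%) and in 3 NoSelection cells (6.67%, 1.40% to 18.3%), a difference of 44.8 points (28.6 to 57.3). After each cell was thinned to 1500 UMIs, which left out 12 NegSelected and 9 NoSelection cells, the Rag shares were 27.8% and 86.1% and the Itm2a shares 44.4% and 2.78%. As a background for Rag, CD4+CD8- cells of the OT2 PosSelected mouse, which should lack it, showed a UMI in 1 of 189 cells (0.529%) at a median of 2937 UMIs. Both genes were seen in 5 NegSelected and 2 NoSelection cells, and neither in 18 and 5.

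The NegSelected cells were not uniform, and those with and without a Rag UMI differed. The 19 cells with a Rag UMI had a median CD5 antibody value of 7.96, the 47 without one 8.69, and the 39 NoSelection cells with a Rag UMI 5.37. The CD5 ranges of the 19 and the 47 NegSelected cells overlapped, at 6.04 to 9.21 and 7.22 to 9.65. Tox was at 831 CPM (576 to 1161) in NegSelected cells with a Rag UMI and 182 CPM (99.3 to 305) in NoSelection cells with one, and Cd5 at 367 CPM (205 to 605) and 51.9 CPM (14.1 to 133). Itm2a was at 220 CPM (101 to 418) in NegSelected cells with a Rag UMI and 26.0 CPM (3.14 to 93.8) in NoSelection cells with one. In Id3 the same cells had overlapping intervals, 220 CPM (101 to 418) in NegSelected and 182 CPM (99.3 to 305) in NoSelection, as they had in Dntt at 1638 and 1441 CPM and Arpp21 at 1320 and 1389 CPM. Ly6d was lower in NegSelected cells with a Rag UMI, at 416 CPM (242 to 665), against 1194 CPM (962 to 1464) in NoSelection cells with one. Tox was not low in every NoSelection cell. The 6 NoSelection cells without a Rag UMI held 14 Tox UMIs, 1163 CPM (636 to 1952), and the 39 with one also held 14. Itm2a and Cd5 had 1 and 2 UMIs in those 6 cells. In NegSelected cells without a Rag UMI, Itm2a was at 1846 CPM and Id3 at 1058 CPM. These cells held 107797 of the 148704 RNA UMIs of the NegSelected double-positive cells. They also held 29 of 29 Nab2 UMIs and 17 of 18 Nr4a1 UMIs, 2 genes named after their values were seen. In PosSelected cells, from a host without ovalbumin, the split ran in the same direction, though only 5 of them had a Rag UMI. In these 5 and the 24 without one, Itm2a was at 260 CPM (53.7 to 761) and 1948 CPM (1633 to 2305). Cd5 was at 260 CPM (53.7 to 761) and 1024 CPM (800 to 1292). Tox had overlapping intervals, at 781 CPM (357 to 1483) and 1327 CPM (1070 to 1628). Their median CD5 antibody values were 7.95 and 8.49, with ranges that overlapped (4.59 to 8.98 and 7.52 to 9.66). Absence of a Rag UMI in a cell of this depth does not show absence of the transcript.

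**Figure D5:**
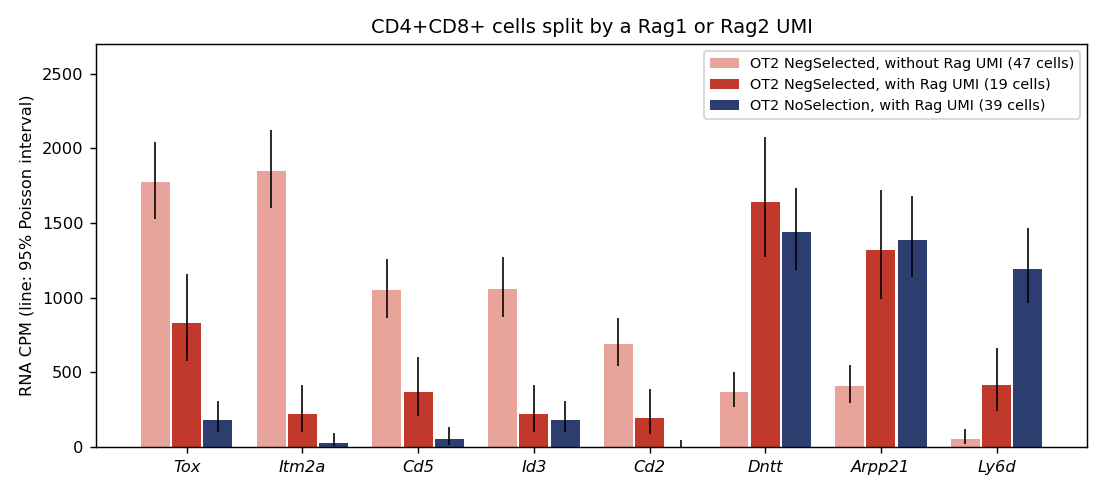
RNA level (y axis, CPM, bars from 0 with 95% Poisson intervals) of 8 genes in NegSelected cells without a Rag1 or Rag2 UMI (47 cells), NegSelected cells with one (19) and NoSelection cells with one (39). The 6 NoSelection cells without one are not drawn. Tox and Cd5 are higher in NegSelected than in NoSelection cells with a Rag UMI (831 against 182 CPM and 367 against 51.9 CPM), while Dntt and Arpp21 are at similar levels.

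Since CD4 differed within the gate, the cells were also compared above a CD4 value of 7.0, which kept 17 NegSelected cells and all 45 NoSelection cells. Gated NegSelected cells with a Rag UMI had a median CD4 value of 7.04, those without one 6.76. Above 7.0 the median CD5 value was 8.58 in the 17 NegSelected cells and 5.37 in NoSelection cells. Tox was at 1850 and 314 CPM, and Itm2a at 502 and 33.7 CPM. Cd5 RNA was at 396 and 67.3 CPM, and Cd2 RNA at 343 and 11.2 CPM. In all gated NegSelected cells, Itm2a, Cd5 and Cd2 RNA were at 1399, 861 and 551 CPM. Rag1 was at 502 CPM in the 17 NegSelected cells and 1347 CPM in NoSelection. The difference in the share of cells with a Rag UMI shrank to -27.8 points. The log2 ratios of Rag2 and Tsc22d3, with 0.5 counts added, were -0.46 and -0.61 there, less than 2-fold.

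Double-positive cells of the OT2 PosSelected host, which has class II but no ovalbumin, were set beside the NegSelected cells. They are 29 of the 254 cells of 1 mouse, so mouse, makeup of the gated cells and antigen cannot be told apart. All 24 named genes lay on the same side of NoSelection in PosSelected as in NegSelected. They were named for extreme ratios against these same NoSelection cells, which favours that outcome, so the count is no independent support. For 5 of the 24 the interval of the NegSelected over PosSelected ratio excluded 1. Rag1 and Tsc22d3 were higher in NegSelected, and Tmsb10, Vim and Mprip lower. Mprip had 9 UMIs in NegSelected and 13 in PosSelected, a ratio of 0.376 (0.142 to 0.952). The share of all measured genes with such an interval was not counted. Itm2a was at 1399 CPM in NegSelected and 1707 CPM in PosSelected, a ratio of 0.819 (0.658 to 1.02), Cd5 at 861 and 915 CPM (0.940, 0.701 to 1.27), Egr1 at 330 and 322 CPM (1.02, 0.624 to 1.72) and Tox at 1513 and 1249 CPM (1.21, 0.953 to 1.55). Ikzf2 was at 350 CPM in NegSelected and 235 CPM in PosSelected (1.49, 0.865 to 2.66). Rag1 differed between these hosts, at 39 UMIs in NegSelected and 4 in PosSelected, 262 and 49.5 CPM, a ratio of 5.30 (1.91 to 20.4). The 39 UMIs lay in 13 cells, a clustering that the interval does not cover. The intervals of Rag2 and Ly6d included 1. Rag2 had 12 and 5 UMIs (1.30, 0.428 to 4.73) and Ly6d 23 and 18 (0.695, 0.359 to 1.37). Tsc22d3 had 27 and 5 UMIs (2.94, 1.11 to 9.76), Aqp11, a channel protein of the preselection list, 44 and 8 (2.99, 1.39 to 7.35), and Arpp21 98 and 28 (1.90, 1.24 to 3.01). Nab2 had 29 and 5 UMIs, a ratio of 3.15 (1.21 to 10.4), Bcl2 22 and 4 (2.99, 1.02 to 11.9), and Nr4a1 18 and 3 (3.26, 0.952 to 17.3). Tmsb10 was lower in NegSelected, at 6422 against 8474 CPM (0.758, 0.686 to 0.837), as was Vim (0.544, 0.333 to 0.888). A Rag UMI was seen in 19 of 66 NegSelected and 5 of 29 PosSelected cells (28.8% and 17.2%, the second with an interval of 5.85% to 35.8%), and an Itm2a UMI in 51.5% and 72.4% of them. The CD5 and CD2 medians of the 2 mice were close, as given above for CD5 and at 6.07 and 6.08 for CD2. The CD4 medians were close too, but the gate cut the cells of both mice at the same CD4 value. Other antibodies, named after their values were seen, differed between the 2 mice. The summed ratio of NegSelected over PosSelected was 1.68 (1.59 to 1.77) for CD45, the leukocyte common antigen, 1.35 (1.30 to 1.39) for CD8A, which had chosen the cells, and 0.698 (0.657 to 0.742) for CD62L, the homing receptor L-selectin. It was 1.38 (1.18 to 1.61) for CD44, in which the sorted cells were low, and 0.683 (0.604 to 0.774) for CD55.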

How the data were processed

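The RNA and antibody libraries of 6 mice, 1 per receptor and host, were used, pooled in 1 lane. Libraries followed the 10x Genomics 5' v2 protocol per the labels. The authors deposited unnormalized counts, as UMIs of each gene and of each antibody in every cell, with the cell's hashtag. Cell Ranger 8.0.1, Seurat and the genome mm10 are named in the submitters' processing notes. How hashtags were called and whether doublets were removed are not given in the sources used here. The receptor sequence libraries were not used here.

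Cells were gated as stated in the report and the UMIs of a mouse's gated cells were added up (python 3.11.15, numpy, scipy and pandas). RNA needed 30 UMIs over both groups and antibodies 100. Ratios are of CPM of the summed RNA or antibody UMIs, with exact conditional binomial intervals; levels have exact Poisson, shares Clopper-Pearson and differences of shares Newcombe intervals, all at 95%. A group at 0 was set to 3 counts for a bound. UMIs of 1 cell are not independent samples of a condition, and with 1 mouse per side no test was made. Ratios and intervals were checked on simulated Poisson counts, the model that the intervals assume. That check does not cover UMIs clustered in a few cells.

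Named genes were the 12 highest and 12 lowest measured ratios whose interval excludes 1.5-fold, without receptor segments, ribosomal protein, mitochondrial genes and Xist. List examples were the members with most UMIs and those stated as chosen after their values were seen; some further members are named for their known role. Antibodies past 1.5-fold were named where either level exceeded the highest isotype control. The cells, thresholds, lists and members were chosen with earlier results of these data known. No cell was left out as a doublet; an alternative left out cells over the 95th percentile of RNA UMIs.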

Additional observations from a re-analysis of the deposited data

Results flagged for a closer look

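Rag1 was lower in NegSelected than in NoSelection double-positive cells with the OT2 receptor (ratio 0.195) and higher with the OT1 receptor, with a ratio of 4.38 (1.40 to 16.1). The OT1 value rests on 11 UMIs in 1 of 8 NegSelected cells and 5 UMIs in 2 of 15 NoSelection cells. The difference between the receptors was not tested.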

How the results depend on the processing

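The count of genes at least 2-fold higher (94) and lower (79) in NegSelected cells, of 1578 measured, depended on the minimum of UMIs and on the number of cells. Both also change how many genes are measured, so each count is to be read against that number. It was 321 and 249 of 3377 genes at a minimum of 15 UMIs, and 25 and 25 of 599 genes at 60. With each cell thinned to 1500 UMIs it was 53 and 41 of 736 genes. With both gate thresholds 0.3 lower, 155 of 2005 genes were higher. With a CD4 threshold of 5.3, chosen after seeing the data, 157 were higher and 121 lower over 2290 genes. With a CD4 threshold of 7.0, also chosen after seeing the data, 29 were higher and 48 lower over 688 genes. Antibodies at least 1.5-fold higher numbered 8 with thresholds 0.3 lower and 8 with a CD4 threshold of 5.3, and those lower 8 with a CD4 threshold of 7.0. The difference in cells with a Rag UMI was -27.8 points at a CD4 threshold of 7.0 and lay between -64.3 and -57.9 points in the other alternatives. The difference for Itm2a lay between 28.6 and 49.8 points. Of 240 values of the 24 named genes under 10 alternatives, 0 changed direction, 228 lay within the counting interval and 12 outside it, most of these at a CD4 threshold of 7.0. The 24 genes were named from these same cells for intervals that exclude 1.5-fold, so an unchanged direction is no independent support. Leaving out cells over the 95th percentile of RNA UMIs removed 0 double-positive cells of both groups and so repeated the main values. The median of gene ratios as size factor shifted log2 ratios by only 0.02.

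No paired analysis was possible because each group is 1 mouse and no result comes from a test over mice. For the same reason no replicate was left out. Depth limits the genes of early signalling and deletion, most of which lay under 30 UMIs. One mouse per side means that mouse, host strain, host class II (by the treatment label) and antigen cannot be told apart.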

Other observations

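The cells outside the gate (111 NegSelected and 63 NoSelection cells of the OT2 mice) gave other ratios for some of the named genes. Cd2, Itm2a, Cd5 and Egr1 were higher in NegSelected there too, with ratios of 3.57 (2.59 to 4.98), 4.63 (3.62 to 5.98), 3.15 (2.32 to 4.32) and 3.14 (2.05 to 4.95). Dap, Cd53 and Vim had ratios of 0.945 (0.601 to 1.48), 1.04 (0.825 to 1.30) and 0.906 (0.752 to 1.09), and St6gal1 one of 0.713 (0.530 to 0.955), unlike in double-positive cells. Tsc22d3, the glucocorticoid-induced gene that was lower in NegSelected double-positive cells, stood at 265 CPM in the other NegSelected cells and 119 CPM in the other NoSelection cells, a ratio of 2.23 (1.60 to 3.15), whereas Fkbp5 was at 125 and 293 CPM, a ratio of 0.426 (0.305 to 0.588). The makeup of these cells differed between the mice, with a median CD4 antibody value of 5.88 in NegSelected and 3.59 in NoSelection, and its part in these ratios was not tested.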
